A study of Mus musculus with 16 samples.

Results

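The genes described here code for collagen chains and for proteins that assemble, cross-link, bind or trim the extracellular matrix. They were chosen by symbol: every gene named Col, a number, a and a number, and 18 further matrix genes. Of these, 44 collagen genes and 16 of the 18 others had a row of their own on the array, which gave 60 of 19938 genes. Loxl2 and Fbn1 were not analysed here. Two-sided limma tests were run over all 19938 genes, and the 60 matrix genes were read from them.

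Expression was measured in N25/2, an immortalized mouse line of embryonic hypothalamic cells, grown in DMEM with fetal bovine serum, penicillin, streptomycin and amphotericin. No genotype or allele separates the groups. Cells were kept without amino acids (deprived) or with amino acids (control) for 1, 2, 3, 5 or 16 h. Whole-transcript arrays were run on 4 deprived and 4 control samples at 5 h, and on 1 deprived and 1 control sample at each of the other times, so the differences at 1, 2, 3 and 16 h have no replicate check. Values are log2 signals, and every difference is a log2 difference, deprived less control. Nothing in the labels tells if the 4 samples came from different cultures, so a p-value covers only how far these samples spread, possibly for technical reasons. The number of arrays limits the precision.

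Collagens are secreted as 3 chains wound around each other, and every turn of that helix needs glycine, often with proline beside it. Chains are hydroxylated and folded in the endoplasmic reticulum with the chaperone Serpinh1, exported, trimmed, and cross-linked outside the cell by lysyl oxidases. Fibrillar collagens (types I, III and V) make fibres, type IV forms the network of basement membranes, and type VI makes beaded filaments. In the brain such genes are mostly expressed in vascular, meningeal and other mesenchymal cells.

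The markers of this line were mixed. Of 8 fibroblast and mural cell markers 5 lay above the signal of the median gene. These were Pdgfrb, Acta2 and Prrx1, and less far above it Pdgfra and Twist1, while Tagln, Cspg4 and Thy1 lay below. Of 5 neural progenitor markers 4 lay above that signal, Nes, Sox2, Sox9 and Vim, and Pax6 lay below. Of 6 neuronal markers only Map2 and Stmn2 lay above it, while Tubb3, Snap25, Syp and Rbfox3 lay below. None of 5 endothelial markers and 1 of 5 microglial or leukocyte markers lay above it. The response to the medium was present on these arrays: all 8 genes of a short amino acid response list rose at 5 h, from Atf4 by 0.95 (SE 0.08) to Trib3 by 2.52 (SE 0.12), and all 8 were at least 1 higher at 16 h.

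In several matrix genes array 4 of the deprived group and array 4 of the control group were far from arrays 1 to 3 at 5 h. Col6a1, a type VI chain, had 8.98, 8.93, 9.01 and 10.67 on deprived arrays 1 to 4, against 9.03, 9.14, 9.24 and 11.19 on control arrays 1 to 4. Col6a2, its partner chain, had 8.11, 8.21, 8.14 and 9.67 on deprived arrays, against 8.15, 8.35, 8.50 and 10.44 on control arrays. Col6a3, the third chain of that filament and named after its values were seen, had 7.44, 7.57, 7.50 and 9.64 on deprived arrays, against 7.56, 7.53, 7.78 and 10.10 on control arrays. These 3 type VI chains were thus far higher on array 4 than on arrays 1 to 3, whatever the medium. The other type VI genes, Col6a4, Col6a5 and Col6a6, were lowest on array 4 in both groups. This was not particular to type VI, since Col9a1, Col11a1 and Col17a1, picked with values in view, were lowest there as well. Timp3, a matrix-bound inhibitor of metalloproteases, was far lower on array 4. It had 12.90, 12.92, 12.88 and 11.40 on deprived arrays, against 13.11, 13.03, 13.01 and 12.25 on control arrays. Counts of calls at 5 h are therefore given with all arrays, with the array number as a block, and with both arrays numbered 4 left out.

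Some collagen genes stand head to head in the genome, and their promoter windows are shown because these pairs can be compared chain by chain. RefSeq (GRCm38.p6) places the start of Col4a1 (minus strand) 21 bases from that of Col4a2 (plus strand) on chromosome 8. Windows run from 250 bases before a start to 50 bases after it, 5′ to 3′ on the strand of the gene. The capitals mark the 78 bases (chr8:11312777-11312854) that the type IV pair shares, read on opposite strands. In Col1a2 (plus strand) the capitals mark the CCAAT letters on either strand, a box that nuclear factor Y is known to bind.
Col4a1 (chr8:11312777-11313076): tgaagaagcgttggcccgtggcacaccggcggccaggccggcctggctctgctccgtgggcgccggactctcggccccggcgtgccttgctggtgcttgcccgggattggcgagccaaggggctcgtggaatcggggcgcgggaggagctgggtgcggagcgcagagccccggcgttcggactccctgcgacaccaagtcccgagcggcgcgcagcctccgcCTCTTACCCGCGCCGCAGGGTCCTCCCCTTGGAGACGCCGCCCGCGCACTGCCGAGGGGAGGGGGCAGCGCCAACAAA
Col4a2 (chr8:11312555-11312854): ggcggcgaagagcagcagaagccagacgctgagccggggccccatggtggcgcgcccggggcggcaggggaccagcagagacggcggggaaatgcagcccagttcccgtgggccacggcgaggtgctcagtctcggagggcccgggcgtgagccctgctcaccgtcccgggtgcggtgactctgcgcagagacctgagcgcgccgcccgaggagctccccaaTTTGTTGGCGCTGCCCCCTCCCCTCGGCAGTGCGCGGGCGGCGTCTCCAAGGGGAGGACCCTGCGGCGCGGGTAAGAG
Col1a2 (chr6:4505368-4505667): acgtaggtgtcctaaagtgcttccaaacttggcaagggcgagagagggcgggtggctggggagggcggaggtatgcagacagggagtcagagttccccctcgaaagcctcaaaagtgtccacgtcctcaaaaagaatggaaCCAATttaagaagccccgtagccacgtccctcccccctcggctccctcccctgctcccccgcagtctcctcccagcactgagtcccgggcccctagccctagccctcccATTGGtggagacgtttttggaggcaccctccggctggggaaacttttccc
A window was listed for 43 of the 60 matrix genes, 48 windows in all. CCAAT, searched on both strands, was in 16 of these 48 windows (33.3 percent) and in 37.4 percent of all 32851 windows. TATAAA, on both strands, was in 9 of the 48 (18.8 percent), against 13.6 percent of all. TGANTCA, the letters AP-1 factors are known to bind, was in 1 of the 48 (2.08 percent), that of Col6a1, against 7.81 percent of all. GTCTAGAC (Smad factors) and TGATGNAAN (the amino acid response element of Atf4 and its partners) were in 0 of the 48, against 0.213 and 3.95 percent of all. These letters are descriptions of the windows and were not set against the expression values. Where 2 motifs overlapped, both were counted.

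After 5 h without amino acids, few matrix genes passed the test. Col8a1, a short-chain collagen of vessel walls and the eye's inner membranes, was the only one of the 60 that passed an adjusted p of 0.05 in limma. It had 9.90, 10.07, 9.996 and 9.91 in deprived cells, against 10.34, 10.31, 10.27 and 10.29 in control cells. Every deprived array lay below every control array. Col8a1 averaged 9.97 ± 0.08 in deprived cells and 10.30 ± 0.03 in control cells (SD, n = 4 each), and it fell by 0.33 (SE 0.07, adjusted p = 0.0316 in limma), to 0.794 of the control signal. That call ended without any 1 of 7 of the 8 arrays, all but control array 4, with an adjusted p between 0.0524 and 0.1275 in limma.

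The count of 1 lower gene of 60 stands beside 1.7 percent of all genes called lower, and that of 0 higher genes beside 2.41 percent called higher. An unadjusted p under 0.05 in limma was reached by 7 of the 60, beside 13.7 percent of all genes. In the fit with the array number as a block, 9 of the 60 fell, beside 10 percent of all genes, and 0 rose, beside 8.22 percent. Without both arrays numbered 4, the 4 that passed were Col1a1, Col8a1, Thbs1 and Timp1, all lower, beside 7.17 percent of all genes, and 0 were higher, beside 6.34 percent. In these 3 fits the matrix genes were called lower about as often as genes in general, and none was called higher.

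Of the 9 called with the block, Thbs1, the matricellular protein thrombospondin 1, had the largest difference. It had 12.83, 12.86, 13.04 and 12.54 in deprived cells, against 13.24, 13.28, 13.24 and 13.15 in control cells. The 2 groups did not overlap. Thbs1 differed by -0.41 (SE 0.11), with an adjusted p of 0.0679 in limma, of 0.0023 in the blocked fit and, with both arrays numbered 4 left out, of 0.00982.

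Col1a1, the main chain of type I collagen, had 11.99, 11.91, 12.03 and 12.28 in deprived cells, against 12.12, 12.31, 12.31 and 12.80 in control cells. The groups overlapped, since deprived array 4 lay above control array 1, but each deprived array lay below the control array of its number. The difference was -0.33 (SE 0.14, adjusted p = 0.3465 in limma), which passed in the blocked fit (0.00827) and with both arrays numbered 4 left out (0.0379). Its partner chain Col1a2 had 7.98, 7.89, 7.94 and 7.97 in deprived cells, against 7.97, 8.23, 8.37 and 8.21 in control cells, with array 1 alike in both. Col1a2 differed by -0.25 (SE 0.09, limma adjusted p = 0.2205). With the block its p was 0.0414, and without both arrays numbered 4 it was 0.1105.

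Col5a1, which helps set the width of type I fibres, had deprived values of 8.32 to 8.57, all below the control values of 8.58 to 8.79. It differed by -0.26 (SE 0.09, adjusted p = 0.18 in limma; 0.0292 with the block). Col12a1, which sits on the surface of such fibres, differed by -0.21 (SE 0.11, adjusted p = 0.517 in limma; 0.0402 with the block). Col4a6, a type IV chain of some basement membranes, differed by -0.21 (SE 0.14, adjusted p = 0.713 in limma; 0.0338 with the block). For Col6a1 and Col6a2 the limma adjusted p was 0.9999 and 0.997 without a block and 0.0463 and 0.0454 with it, and without both arrays numbered 4 it was 0.214 and 0.244.

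**Figure D1:**
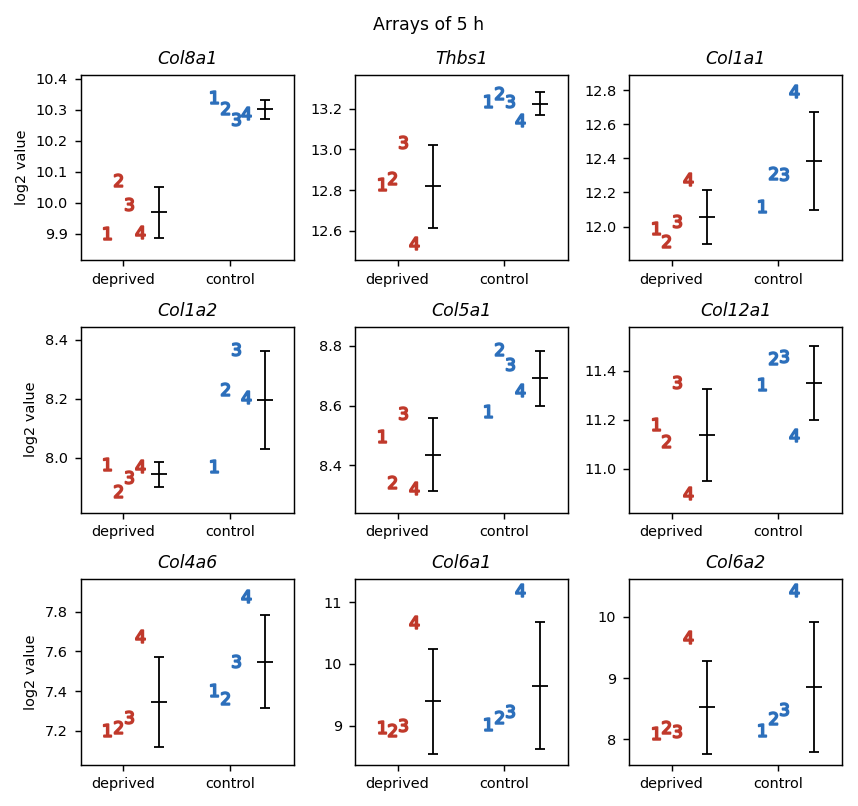
Log2 values of the 9 matrix genes called lower at 5 h with the array number as a block, deprived arrays left and control arrays right. Each digit is the array of that number, and the black bars give mean and SD (n = 4). Col8a1, Thbs1 and Col5a1 show no overlap, and array 4 is the highest of both groups for Col6a1 and Col6a2.

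Over the 60 genes, all deprived arrays lay below all control arrays in 5 (Col8a1, Thbs1, Col5a1, Col4a5 and Loxl1), beside 5.38 percent of all genes, and above them in 0, beside 5.15 percent. The difference was below 0 in 51 of the 60, beside 55.4 percent of all genes, but the median was small, -0.08 against -0.01 over all genes. Among the brightest matrix genes by mean signal the differences varied, from those of Thbs1 and Timp3 (-0.41 and -0.32) to those of Fn1, Sparc and Postn, which were small. Fn1, the cell-adhesive glycoprotein fibronectin, averaged 13.49 ± 0.04 in deprived and 13.50 ± 0.0048 in control cells. Postn, periostin, averaged 12.82 ± 0.06 in deprived and 12.83 ± 0.06 in control cells, and Sparc, a collagen-binding glycoprotein, 13.40 ± 0.03 in deprived and 13.45 ± 0.02 in control cells (SD, n = 4 each).

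The type IV head-to-head pair differed by nearly the same amount, Col4a1 by -0.21 (SE 0.11) and Col4a2 by -0.22 (SE 0.15), and neither passed (adjusted p = 0.483 and 0.7215 in limma). Col3a1, a fibrillar chain of soft tissue, differed by -0.23 (SE 0.11) and Col5a2 by -0.16 (SE 0.13), without passing. Of the enzymes and inhibitors, the cross-linking oxidases Lox and Loxl1 differed by -0.15 (SE 0.17) and -0.20 (SE 0.09), the gelatin-cutting protease Mmp2 by -0.12 (SE 0.12), and the protease inhibitors Timp1 and Timp3 by -0.19 (SE 0.14) and -0.32 (SE 0.34). Serpinh1, the collagen chaperone, differed by 0.17 (SE 0.19, adjusted p = 0.946 in limma) and Eln by 0.04 (SE 0.16). The small proteoglycans Bgn, Dcn and Lum differed by -0.23 (SE 0.15), -0.14 (SE 0.13) and -0.04 (SE 0.08), and Tnc, tenascin C, by -0.13 (SE 0.11).

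In the first hours there was little to see. At 1, 2 and 3 h none of the 60 matrix genes was 1 or more apart in either direction, beside 0.125, 0.181 and 0.135 percent of all genes. Their median difference was 0.03 at 1 h, -0.01 at 2 h and 0.06 at 3 h, and all single differences lay between -0.44 (Bgn at 3 h) and 0.43 (Col28a1 at 3 h, named after its value was seen). Col8a1 differed by 0.09, -0.02 and -0.10 at 1, 2 and 3 h, Thbs1 by -0.04, 0.04 and -0.17, and Col1a1 by -0.01, -0.25 and -0.13.

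At 16 h the picture was different: many matrix genes were far lower in deprived than in control cells. The difference was below 0 in 56 of the 60, beside 56.2 percent of all genes, with a median of -0.34 against -0.04 over all genes. It was -1 or lower in 13 of the 60, beside 2.97 percent of all genes, and 1 or higher in 0, beside 1.96 percent. These are single arrays, so no p-value goes with the counts, and in bulk RNA fewer cells of a type and less RNA per cell cannot be told apart. With another quantile normalization or with arrays centred on their medians, both chosen after seeing the data, the count was 12.

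**Figure D2:**
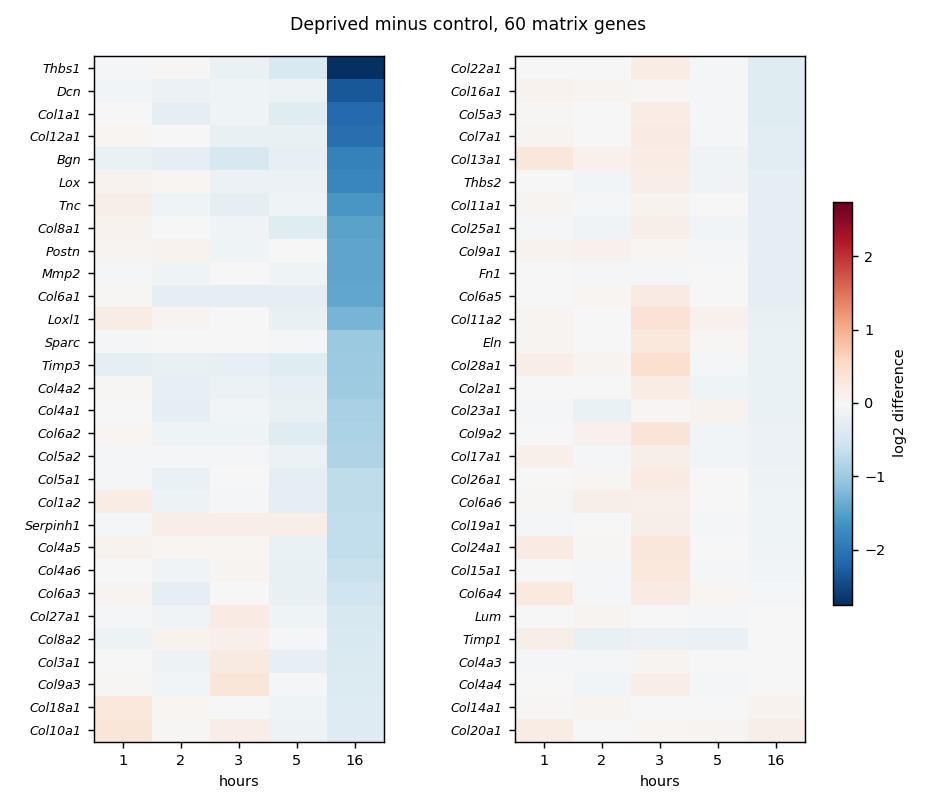
Deprived minus control (log2, color) for the 60 matrix genes at 1, 2, 3, 5 and 16 h, ordered by the 16 h difference from the top left to the bottom right. Values of 5 h are means of 4 arrays a group and the others are single pairs. The strong blue is in the 16 h column, led by Thbs1 at -2.73, Dcn at -2.33 and Col1a1 at -2.13.

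Thbs1 had 10.25 in deprived cells at 16 h, against 12.97 in control cells, a 6.63-fold lower signal. Its deprived series ran 13.43, 13.26, 13.13, 12.82 (mean of 4) and 10.25 from 1 to 16 h, against 13.47, 13.22, 13.30, 13.23 and 12.97 in control cells. The deprived signal thus moved away from the control signal mostly after 5 h.

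The collagens that form fibres or sit on their surface differed unequally. Col1a1 had 9.90 in deprived cells, against 12.03 in control cells at 16 h (-2.13, a 4.37-fold lower signal), while Col1a2 had 7.51 in deprived cells, against 8.20 in control cells (-0.70). Col12a1 had 8.35 in deprived cells, against 10.41 in control cells (-2.06). Col5a1, Col5a2 and Col3a1 differed by -0.71, -0.83 and -0.40, and Col11a1, a fibrillar chain of cartilage, by -0.26. Rows differ in how they read their gene, so a larger difference of Col1a1 than of Col1a2 is one of signal and was not tested.

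Network and filament collagens differed unequally as well. The head-to-head pair Col4a1 and Col4a2, whose windows are printed above, had 8.16 and 8.31 in deprived cells at 16 h, against 9.04 and 9.29 in control cells, which makes -0.88 and -0.98. The X-linked pair Col4a5 and Col4a6, whose starts lie 1343 bases apart on opposite strands, differed by -0.67 and -0.62. In both pairs the chains differed by like amounts at 5 and at 16 h. Col6a1, Col6a2 and Col6a3 differed by -1.42, -0.87 and -0.54, and Col8a1 had 8.76 in deprived cells, against 10.23 in control cells (-1.47). Other chains of types IV and VI differed little, Col4a3 and Col4a4 by 0.0007 and 0.0032. Col6a4, Col6a5 and Col6a6 differed by -0.04, -0.24 and -0.13, and these chains were named after their values were seen. Col4a3, Col4a4, Col6a4 and Col6a5 lay below the signal of the median gene, and whether they are expressed here cannot be read from their signals.

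Among the proteins that cross-link and organize fibres, Lox had 10.33 in deprived cells, against 12.13 in control cells (-1.80), and Loxl1 had 9.16 in deprived cells, against 10.44 in control cells (-1.28). Tnc had 9.55 in deprived cells, against 11.16 in control cells (-1.61), Postn 10.46 in deprived cells, against 11.92 in control cells (-1.46), and Sparc 12.47 in deprived cells, against 13.48 in control cells (-1.01). Serpinh1 differed by -0.68. Fn1, which many matrix proteins assemble on, had 13.27 in deprived cells, against 13.52 in control cells (-0.25), where the highest signal of the whole table was 14.2. Eln, elastin, and Thbs2, a second thrombospondin, differed by -0.19 and -0.28.

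The protease and its inhibitors did not move alike. Mmp2 had 10.17 in deprived cells, against 11.62 in control cells (-1.45), and Timp3 had 11.86 in deprived cells, against 12.85 in control cells (-0.99). Timp1, a secreted inhibitor, had 10.17 in deprived cells, against 10.18 in control cells (-0.01).

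The small proteoglycans, which coat collagen fibres, went 3 ways. Bgn, biglycan, had 7.29 in deprived cells at 16 h, against 9.14 in control cells (-1.86), and its deprived 5 h arrays had been at 9.26 to 9.55. Dcn, decorin, had 7.38 in deprived cells, against 9.72 in control cells (-2.33), but here the control array moved: the deprived array differed by -0.26 from the deprived mean at 5 h (7.65 ± 0.25, SD, n = 4), and the control array by 1.94 from the control mean at 5 h (7.78 ± 0.13, SD, n = 4). Lum, lumican, stayed near the bottom of the signal range, with 4.42 in deprived and 4.44 in control cells.

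Apart from Dcn, the 12 other genes that were 1 or more lower at 16 h differed from their own deprived 5 h mean by -0.93 (Sparc) to -2.79 (Col12a1). For Col6a1 (-1.23) that mean includes array 4, at 10.67 against 8.93 to 9.01 on arrays 1 to 3. The 16 h control array also stood at either end of the 8 control arrays for some matrix genes. It is a single array, and a change of control cells with time was not tested. It was the highest for 11 of the 60 genes, among them Dcn, Fn1 and Col4a5, near the 15.1 percent of all genes. It was the lowest for 11 others, beside 10.7 percent of all genes, and these were Col12a1, Col1a1, Col5a2, Col8a1, Postn, Lox, Loxl1, Tnc, Thbs1, Bgn and Timp1. In deprived cells Col12a1, Postn, Lox and Tnc differed from their 5 h means by -2.79, -2.37, -2.53 and -2.22, against -0.94, -0.92, -0.88 and -0.74 in control cells. The deprived 16 h array was the lowest of all 16 arrays for 23 of the 60, beside 12.6 percent of all genes, and the highest for 1 (Col14a1), beside 12.8 percent.

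**Figure D3:**
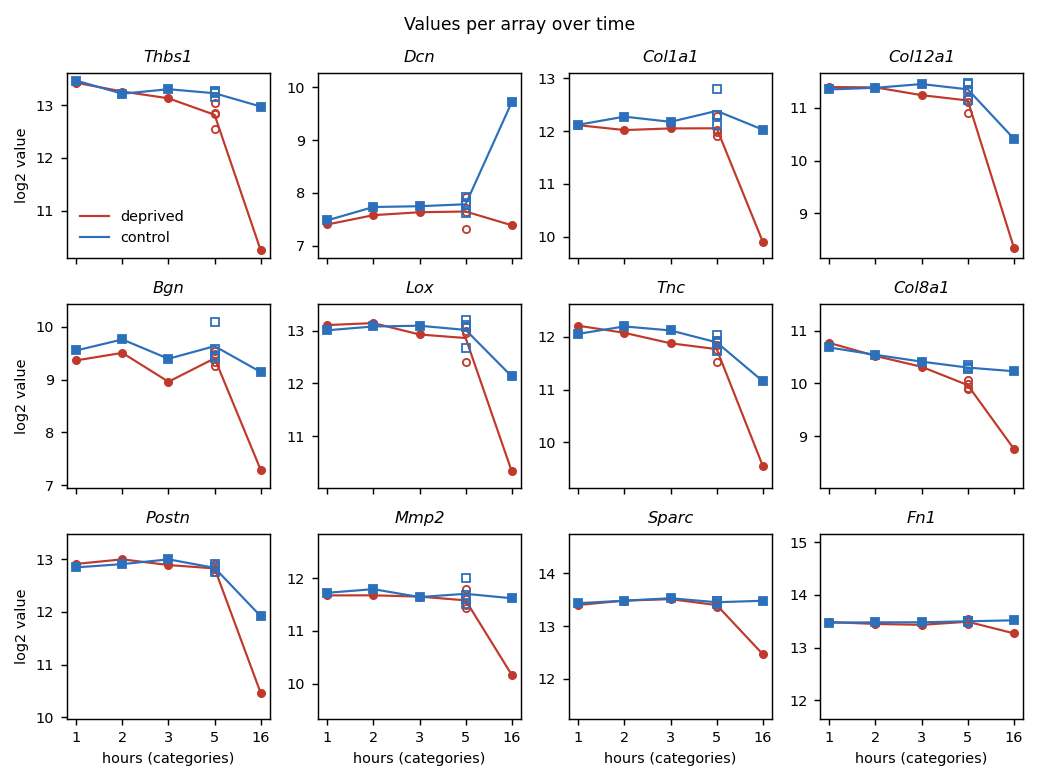
Log2 values of 12 matrix genes from 1 to 16 h (hours as categories), deprived in red circles and control in blue squares. Filled symbols are single arrays, open symbols the 4 arrays of 5 h with the line through their mean, and every panel spans 3.5 log2 units. At 16 h the deprived values of most genes lie below those of 5 h, Dcn differs through its 16 h control value of 9.72, and Fn1 stays nearly flat.

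The genes with a large difference were mostly those whose rows carry a strong signal. Of the 11 matrix genes in the top 10 percent of genes by mean signal, 9 were 1 or more lower at 16 h, beside 7.77 percent of all genes in that range, and the exceptions were Fn1 and Timp3. Their median difference was -1.46, against -0.02 for all genes in that range. Of the 21 matrix genes at or below the median signal, 0 were 1 or more lower, near the share of 0.301 percent of all genes there. Their median was -0.19 against -0.05 for all genes there. These dim rows include Col9a1 and Col10a1 of cartilage and Col17a1 of skin, and whether such genes are expressed at all in this line cannot be read from their signals. The 4 genes with a 16 h difference above 0 were Col20a1 (0.16), Col14a1 (0.10), Col4a4 (0.0032) and Col4a3 (0.0007), named after their values were seen.

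**Figure D4:**
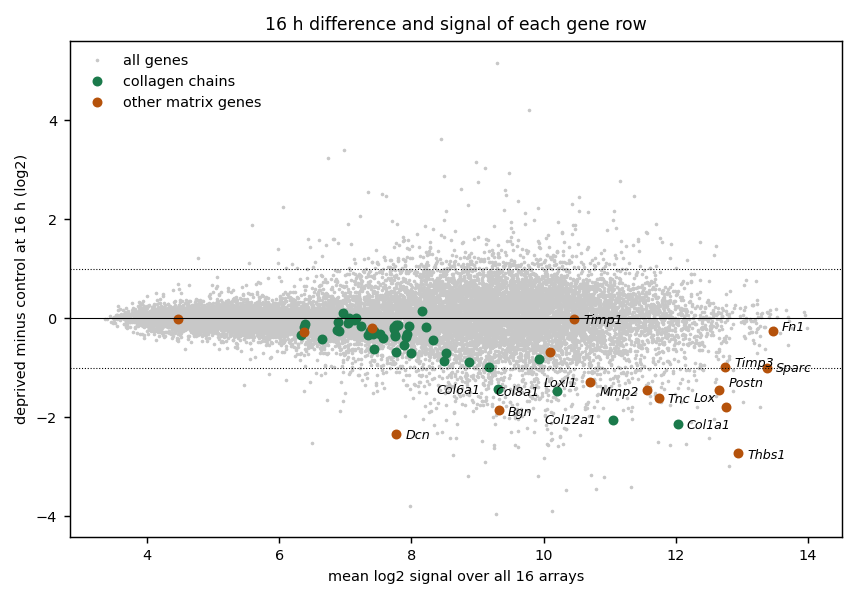
Deprived minus control at 16 h (log2, 1 array a group) against the mean log2 signal of each gene over the 16 arrays, with all 19938 genes in grey, collagen chains in green and other matrix genes in orange. Dotted lines mark differences of 1 and -1. Of the matrix genes with the strongest signals, 9 of 11 lie below -1, with Fn1 and Timp3 above that line.

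Whether the deprived minus control difference moved with hours was tested over all 16 arrays, with time as a factor and the difference allowed to change with log2 hours. It fell with time for 4 of the 60, beside 1.07 percent of all genes, and rose for 0, beside 1.39 percent. Thbs1 changed by -0.62 per doubling of hours (SE 0.14, adjusted p = 0.0312 in limma), Col8a1 by -0.37 (SE 0.06, adjusted p = 0.0111), Loxl1 by -0.35 (SE 0.07, adjusted p = 0.0185) and Col4a5 by -0.19 (SE 0.05, adjusted p = 0.0468). Without both 5 h arrays numbered 4 it fell for 20 of the 60, beside 6.19 percent of all genes, adding among others Col1a1, Col12a1, Lox, Postn, Tnc, Mmp2 and Sparc. Without the 16 h arrays it was 0 of the 60, so the calls rest on that 1 pair. The fit assumes that single arrays vary like the others and that the difference moves evenly with log2 hours. For Thbs1 the differences were -0.04, 0.04, -0.17, -0.41 and -2.73 from 1 to 16 h, so most of its change came at 16 h.

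The mean difference over 1, 2, 3 and 16 h, tested with time as a factor, passed for 0 of the 60 in limma, beside 0 percent of all genes. At an unadjusted p under 0.05 only Timp3 was called (-0.43, unadjusted p = 0.0255 in limma), beside 3.07 percent of all genes called lower in this way. Timp3 was lower in deprived cells at each of these 4 times, with differences of -0.28, -0.20, -0.24 and -0.99. Across the 60 genes, the differences at 5 h and at 16 h, which come from separate arrays, correlated with r = 0.64, and across all 19938 genes with r = 0.61. Genes are not independent replicates, and the rows share their signal range between both times.

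Genes that act on collagens were read from lists written from general knowledge. Beside their counts at 5 h stand the shares over all genes given above: 1.7 percent lower and 2.41 percent higher, 10 and 8.22 percent with the block, and 7.17 and 6.34 percent without both arrays numbered 4. Beside counts of 1 or more lower at 16 h stand 2.97 percent of all genes. That share was 0.301 percent up to the median signal and 4.21, 6.59 and 7.77 percent in the 3 higher signal ranges. Of the 167 list genes 125 lie above the median, so 2.97 percent is a low mark for them. Of 21 genes of collagen folding and modification none passed at 5 h in limma, with the block 1 was higher and 5 lower, and without both arrays numbered 4 there were 0 higher and 3 lower. At 16 h the median of that list was -0.84, and 7 were 1 or more lower: the hydroxylase subunits P4ha1 (-1.17) and P4ha3 (-1.77), the lysyl hydroxylase Plod2 (-1.21), the prolyl 3-hydroxylation partner Crtap (-1.03), Fkbp14 (-1.36), Rcn3 (-1.39) and Creb3l1 (-1.20), a transcription factor of procollagen genes. Of 18 genes of procollagen export and processing, Sec24d, a vesicle coat subunit for large cargo, fell at 5 h by 0.42 (SE 0.10, adjusted p = 0.0445 in limma). Of this list 1 was higher and 6 lower with the block, and 1 higher and 4 lower without both arrays numbered 4. At 16 h 6 of the 18 were 1 or more lower, among them Pcolce (-1.57), an enhancer of procollagen cleavage, Loxl3 (-1.69) and Tgm2 (-1.61).

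Of 22 proteases and inhibitors, the aggrecan-cutting proteases Adamts1 and Adamts5 fell at 5 h by 0.68 (SE 0.08, adjusted p = 0.00125 in limma) and by 0.52 (SE 0.10, adjusted p = 0.0181), and Mmp19 rose by 0.62 (SE 0.11, adjusted p = 0.0146). The blocked fit called 3 higher and 10 lower, and the fit without both arrays numbered 4 called 3 and 9. At 16 h 6 of the 22 were 1 or more lower, among them Plat, a plasminogen activator (-2.01), and Mmp14, which activates Mmp2 (-1.23). Of 31 elastic fibre and other matrix glycoprotein genes none passed at 5 h, against 6 lower in the blocked fit and 3 lower without both arrays numbered 4. At 16 h 7 of the 31 were 1 or more lower, with Aspn, asporin, at 5.25 in deprived cells, against 9.06 in control cells (-3.80), and Tgfbi at 8.14 in deprived cells, against 11.31 in control cells (-3.17). Of 14 laminin and basement membrane genes none passed at 5 h, against 3 lower in the blocked fit and 0 without both arrays numbered 4, and Nid2 (-1.01) and Hspg2 (-1.14) were 1 or more lower at 16 h.

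Of 21 genes of TGF-beta signalling, a main inducer of collagen genes, 2 fell and 2 rose at 5 h, against 7 lower and 3 higher in the blocked fit and 6 lower and 3 higher without both arrays numbered 4. The receptor Tgfbr2 fell by 0.48 (SE 0.07, adjusted p = 0.00489 in limma) and the target Ccn1 by 0.50 (SE 0.12, adjusted p = 0.0451). The inhibitors Smad7 and Skil rose by 0.43 (SE 0.09, adjusted p = 0.0201) and 0.57 (SE 0.14, adjusted p = 0.0493). At 16 h the median of that list was -0.26, and 5 of the 21 were 1 or more lower. The ligands Tgfb1, Tgfb2 and Tgfb3 differed by -1.25, -1.53 and -1.80, Tgfbr2 by -1.54 and Tgfbr3 by -1.27.

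Of 21 integrins and collagen receptors, Itga3 and Itga5 fell at 5 h by 0.60 (SE 0.09, adjusted p = 0.00557 in limma) and by 0.53 (SE 0.09, adjusted p = 0.00842), and the collagen receptor Ddr2 rose by 0.67 (SE 0.07, adjusted p = 0.000602). The blocked fit called 8 lower and 2 higher, and the fit without both arrays numbered 4 called 7 and 2. At 16 h 7 of the 21 were 1 or more lower, led by Itgb8 (-2.25) and Itgb3 (-1.68), while Ddr2 differed by 0.55. Of 11 genes of glycine and proline supply 7 rose at 5 h and 0 fell in limma. The blocked fit called 8 higher and 1 lower, and the fit without both arrays numbered 4 called 7 and 1. The lower one was Oat, an ornithine and proline enzyme, at -0.40 (adjusted p = 0.383 in limma, and 0.00145 with the block). The largest rises were those of the glycine transporter gene Slc6a9 by 1.77 (SE 0.22), the serine enzyme Psph by 0.99 (SE 0.10), the proline enzyme Aldh18a1 by 0.94 (SE 0.13) and the glycine enzyme Shmt2 by 0.83 (SE 0.13), with adjusted p from 0.000926 to 0.00713 in limma. At 16 h the median of that list was 0.78. In all the other lists except the amino acid response genes it was below 0, from -0.26 to -0.84.

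**Figure D5:**
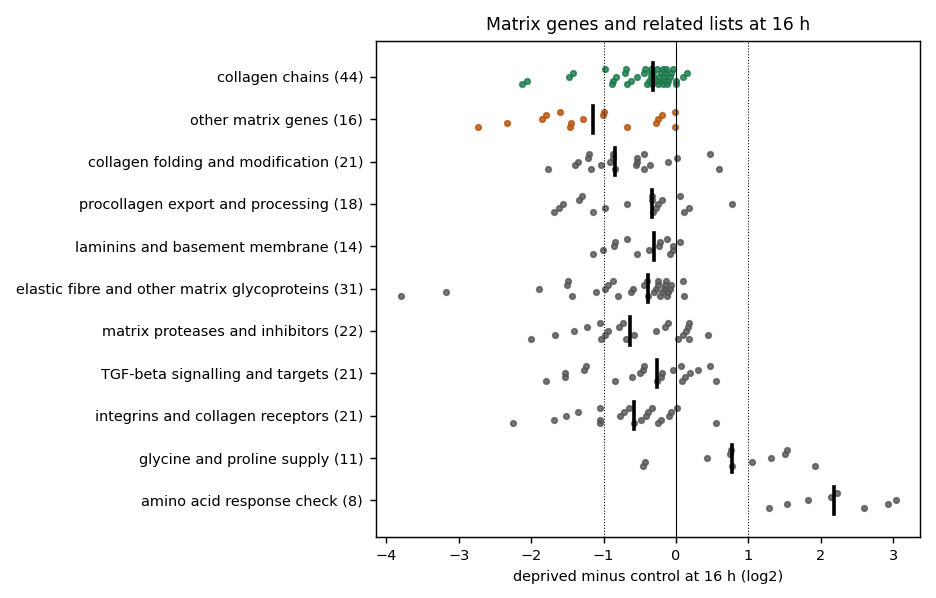
Deprived minus control at 16 h (log2, 1 array a group) for each measured gene of the collagens, the other matrix genes and 9 related lists, with the number of genes in brackets and the median as a black bar. Dotted lines mark 1 and -1. The collagen and matrix lists have medians below 0, and the glycine and proline supply (0.78) and amino acid response genes (2.18) lie above it.

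Of the 8 markers of fibroblasts and mural cells, 3 were 1 or more lower at 16 h, beside 2.97 percent of all genes. These 3 lie in the top 10 percent by signal, where that share was 7.77 percent. At 5 h 1 of the 8 was called lower, beside 1.7 percent of all genes. The mean level of the 8 markers was 9.10 to 9.19 on the deprived arrays of 5 h, against 9.27 to 9.47 on the control arrays. At 16 h it was 8.54 in deprived cells, against 9.25 in control cells. At 16 h Acta2, Pdgfrb and Prrx1 differed by -1.78, -1.57 and -1.02, while Pdgfra, Twist1, Tagln, Cspg4 and Thy1 differed by -0.46, -0.41, -0.29, -0.10 and -0.04. Prrx1 fell at 5 h by 0.41 (adjusted p = 0.0195 in limma). Markers of neural progenitors had a mean level of 9.49 in deprived cells, against 10.28 in control cells at 16 h. Of these 5 markers 2 were 1 or more lower, beside 2.97 percent of all genes. Sox9, Sox2, Nes and Vim differed by -1.41, -1.27, -0.72 and -0.54, while Pax6 had 6.004 in deprived and 6.005 in control cells. Among these markers Nes fell at 5 h by 0.69 (adjusted p = 0.00923 in limma). Astrocyte markers were at 7.12 in deprived and 8.01 in control cells, with Slc1a3 at -2.49 and the next, Aldoc, at -0.96. Of the neuronal markers Stmn2 differed by -1.44 and the others by -0.34 (Map2) to 0.20 (Snap25). Endothelial markers were at 6.26 in deprived and 6.33 in control cells, and leukocyte markers at 6.18 in deprived and 6.16 in control cells. These means lie below the signal of the median gene (7.47), which of these markers only Cx3cr1 exceeded. The part of these markers' shifts in the matrix differences was not tested.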

How the data were processed

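Total RNA of N25/2 cells, 250 ng per sample, was amplified to labelled sense cDNA for Affymetrix whole-transcript arrays, as the labels' protocols state. Log2 values were deposited as 1 table of 35556 rows and 16 columns. Per the submitters' processing notes the authors used RMA and limma, with no version named. The authors' settings are not given in the sources used here. No further normalization was applied in the main results.

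Rows were named through the platform's annotation, in which 21789 had 1 symbol, 1621 several and 12146 none. Symbols were updated by Entrez identifier for 21698 rows. Of a gene's rows the one with the highest mean was kept, which left 19938 genes, without a filter on low values. The 4 deprived and the 4 control arrays of 5 h entered a linear model in limma 3.58.1 under R 4.3.3, with moderated two-sided tests and adjustment by Benjamini-Hochberg over all genes at a threshold of 0.05. Mean differences over 1, 2, 3 and 16 h used time as a factor, and the change with time used all 16 arrays. Single arrays were compared as log2 differences, counted from 1. Methods were tested on simulated data. Python 3.11.15 was used for tables and plots.

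The genes, the lists and the tests were chosen with earlier results of these data known. Named were the 16 measured listed matrix genes, 11 major collagens, every matrix gene past a threshold or 1 or more apart, and up to 4 passing genes per list. Genes of the related lists named for 16 h only were picked with values in view. Replicate numbers 1 to 4 occur in both groups, without a stated meaning. Deviations from the group means correlated between same-numbered arrays with 0.354, 0.584, 0.467 and 0.896, so the number was used as a block in a further fit. Without number 4 these were 0.193, -0.003 and -0.2, so the pairing comes from that number. Alternatives were this block, another quantile normalization, centring, mean rows, a signal filter, a trended and robust prior, array weights and left-out arrays. Promoter windows are from RefSeq, GRCm38.p6.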

Additional observations from a re-analysis of the deposited data

Results flagged for a closer look

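In 8 of 58 checks (29 named matrix genes in 2 groups of 4 arrays at 5 h), 1 array lay far from the other 3, with a gap to the nearest that exceeded Dixon's critical value as a share of the group's range. Chance gives about 1 in 20. Array 4 was the outlying one in 7 of the 8. It was highest for Col6a1 in deprived (gap 0.954 of the range) and control cells (0.903), highest for Col6a2 in deprived (0.934) and control cells (0.845), and highest for Loxl1 in control cells (0.963). It was lowest for Timp3 in deprived (0.975) and control cells (0.877). Lum was highest on deprived array 2 (0.911), at 4.57 against 4.35 to 4.37.

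For 4 genes the deprived minus control difference changed with hours in the test over 16 arrays: Thbs1 by -0.62 per doubling of hours, Col8a1 by -0.37, Loxl1 by -0.35 and Col4a5 by -0.19. None of the 4 was called without the 16 h arrays.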

How the results depend on the processing

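At 5 h limma called 1 of the 60 matrix genes (Col8a1), 26 of the 167 genes of the related lists and 820 of all genes. The count of matrix genes was 2 with another quantile normalization, beside 1229 of all genes, and with a trended and robust prior, beside 754. With genes above the median signal only it was 2 of 39, beside 957 of 9969 genes. Thbs1 was the gene added each time. With the replicate block the counts were 9, 72 and 3632, with array weights 17 (16 lower and 1, Col20a1, higher), 77 and 5485, and without both arrays numbered 4 they were 4, 57 and 2695. Leaving out 1 array at a time gave 0 to 1 matrix genes, 19 to 29 list genes and 382 to 1066 of all genes. The block changed no other call of a named matrix gene than those given.

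The differences of Fn1, Postn and Col11a1 at 5 h lay so near 0 that their sign turned with another quantile normalization (0.0047, 0.0024 and 0.0064) and with centring (0.0187, 0.0161 and 0.008), and that of Col11a1 without both arrays numbered 4 (0.0124). With 1 array left out at a time the ranges were -0.0242 to 0.0092 for Fn1, -0.0382 to 0.0117 for Postn, -0.2651 to 0.0005 for Lox, -0.0622 to 0.1673 for Eln, -0.5225 to 0.0508 for Timp3, -0.6729 to 0.265 for Col6a1, -0.7091 to 0.1955 for Col6a2 and -0.0668 to 0.0606 for Col11a1. They kept their sign but were wide for Serpinh1 (0.0482 to 0.3395), Mmp2 (-0.1933 to -0.0214), Bgn (-0.3046 to -0.0771), Dcn (-0.23 to -0.0277) and Col5a2 (-0.2333 to -0.0461), none of which passed with 1 array left out. Over 17 settings the adjusted p of Col8a1 ran from 0.000158 to 0.1275 and that of Thbs1 from 0.000241 to 0.1937 in limma.

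For the change with time, 4 matrix genes and 492 of all genes were called. With arrays centred on their medians Col4a5 was no longer among the matrix genes. With genes above the median signal only, 8 of 39 matrix genes and 694 of 9969 genes were called. The counts of matrix genes and of all genes were 0 and 34 without the 16 h arrays and 20 and 2456 without both arrays numbered 4. They were 13 and 1026 with linear hours, and 5 and 829 with another quantile normalization. The mean over 1, 2, 3 and 16 h gave 0 calls, against 35 of all genes without the 16 h arrays. The 16 h median of the matrix genes was -0.70 above the median signal. The cause was not tested. The 1, 2, 3 and 16 h results rest on single arrays.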
